A study of Mus musculus with 36 samples.

Results

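The Hox genes are the homeobox genes of the Hoxa, Hoxb, Hoxc and Hoxd clusters. They were taken here by symbol, as every gene named Hoxa, Hoxb, Hoxc or Hoxd followed by its paralog number, from a count table of 24344 genes. The rule found 22 genes, 7 of the 11 annotated in the Hoxa cluster, 7 of 10 in Hoxb, 3 of 9 in Hoxc and 5 of 9 in Hoxd. The other 17 annotated Hox genes, Hoxb1 and genes of paralog number 8 and above, have no row in the table and were not analysed here. Every gene in the table had an estimated count above 0 in at least 19 of the 36 libraries, so the genes listed are ones detected widely. All 22 passed the filter on low counts and were among the 20108 genes tested.

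Hox proteins are homeodomain transcription factors that give cells their position along the head-to-tail axis. Within a cluster the genes lie in order of paralog number, and low-numbered genes are switched on earlier and further towards the head than high-numbered ones. In the hindbrain low numbers mark its segments, the rhombomeres, with paralogs of number 4 and 5 reaching the caudal medulla that holds the dorsal vagal complex, while higher numbers are typical of the spinal cord, and expression in neurons of these regions persists into adult life. Hox proteins bind DNA together with the cofactors Pbx, Meis and Pknox, and their clusters are set up by retinoic acid and held by Polycomb and Trithorax chromatin proteins.

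The libraries were made from polyA RNA of the dorsal vagal complex, labelled as solitary tract nucleus and dorsal motor vagal nucleus, the brainstem centre that receives and answers signals from the gut. Wild-type mice of 3 inbred strains were used, C57BL/6J (a common laboratory strain), CAST/EiJ (derived from wild Mus musculus castaneus) and NZO/HlLtJ (an obese, diabetes-prone strain). From 6 weeks of age they received a control diet with 10% fat and fiber or a high-fat, high-sugar diet (HFHS) with 44% fat and fiber, and tissue was taken at 15 weeks. Each strain, sex and diet had 3 libraries, no other treatment is named, and the labels do not say whether a library is 1 animal or a pool, so p-values measure the spread between these libraries. The comparisons ask how the Hox genes differ between the diets within each strain and between the strains.

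The libraries held 22.03 to 49.61 M (1e+06) estimated counts, and levels are given as counts per 1e+06 counts scaled with edgeR's TMM factors (CPM), in a further step per kilobase of exon where genes are compared with each other. 3 libraries stood apart and are part of every result below. The summed level of the 22 Hox genes was 1.14 and 1.91 CPM in a pair of CAST/EiJ libraries, male controls 1 and 3, and 2.75 CPM in an NZO/HlLtJ library, male control 3, against 20.3 to 361 CPM in the other 33 libraries. The same 3 libraries had the lowest summed levels of 13 markers of dorsal vagal and other hindbrain nuclei, at 107, 92.7 and 126 CPM, where the median library had 528 CPM. Markers of cerebellar neurons were highest in the CAST/EiJ pair, at 2371 and 2723 CPM against a median of 958 CPM. Markers of the midbrain and isthmus were highest in the NZO/HlLtJ library, at 170 CPM against a median of 60.2 CPM, with Slc6a3, the dopamine transporter, at 55.3 CPM there and at a median of 0.295 CPM over all libraries. A further library, NZO/HlLtJ male control 1, held 17460 CPM of pituitary markers, where the next held 23.9 CPM, and the median diet difference of the Hox genes in NZO/HlLtJ was 1.45 without it and 1.14 with it on the log2 scale. In bulk tissue, fewer cells of a type and less RNA per cell cannot be told apart.

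The 4 clusters lie on different chromosomes (gencode vM21 on GRCm38, from the first to the last annotated Hox gene of each). Hoxa spans chr6:52155590-52260880 and is transcribed from the minus strand, so paralog numbers rise with the coordinate. Hoxb spans chr11:96194316-96368256, Hoxc chr15:102921103-103036852 and Hoxd chr2:74668310-74765142, all transcribed from the plus strand with paralog numbers rising to the left. The deposited start and end of all 22 members matched this annotation within 1 base.

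Promoters are shown for 5 members named in the results. Hoxb4 and Hoxb8 lie in 1 cluster and differ in how far they varied between libraries, and Hoxa5 is among the most abundant members. Hoxd8 was called in 1 strain comparison, NZO/HlLtJ against CAST/EiJ, and the call was lost without single libraries. Hoxd13 had levels that ran opposite to all others. Each promoter is the 250 bases before the RefSeq start site on GRCm38.p6, 5′ to 3′ on the gene's own strand. Capitals mark matches on either strand to the motifs named after them. RefSeq promoters were found for 13 of the 22 members.
Hoxa5, chr6:52204588-52204837, minus strand: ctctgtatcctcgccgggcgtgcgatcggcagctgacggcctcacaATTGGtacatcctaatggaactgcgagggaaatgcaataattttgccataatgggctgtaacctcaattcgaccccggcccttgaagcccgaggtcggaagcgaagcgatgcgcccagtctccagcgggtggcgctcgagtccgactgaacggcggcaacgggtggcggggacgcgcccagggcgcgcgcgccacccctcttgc
Hoxb4, chr11:96318017-96318266, plus strand: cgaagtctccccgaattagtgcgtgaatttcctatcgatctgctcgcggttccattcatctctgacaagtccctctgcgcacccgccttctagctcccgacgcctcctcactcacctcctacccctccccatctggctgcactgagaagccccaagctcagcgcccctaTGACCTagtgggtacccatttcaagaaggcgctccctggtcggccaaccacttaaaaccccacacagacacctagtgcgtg
Hoxb8, chr11:96281655-96281904, plus strand: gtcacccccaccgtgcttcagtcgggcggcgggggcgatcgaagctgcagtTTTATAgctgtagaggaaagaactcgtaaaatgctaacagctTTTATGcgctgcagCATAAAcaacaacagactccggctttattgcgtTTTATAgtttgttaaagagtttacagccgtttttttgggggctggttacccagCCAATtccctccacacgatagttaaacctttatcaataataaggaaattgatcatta
Hoxd8, chr2:74704365-74704614, plus strand: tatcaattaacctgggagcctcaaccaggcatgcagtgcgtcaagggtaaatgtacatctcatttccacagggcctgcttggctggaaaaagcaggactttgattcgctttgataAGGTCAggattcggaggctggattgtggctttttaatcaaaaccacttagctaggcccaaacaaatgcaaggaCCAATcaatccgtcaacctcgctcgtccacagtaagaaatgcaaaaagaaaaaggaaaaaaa
Hoxd13, chr2:74667975-74668224, plus strand: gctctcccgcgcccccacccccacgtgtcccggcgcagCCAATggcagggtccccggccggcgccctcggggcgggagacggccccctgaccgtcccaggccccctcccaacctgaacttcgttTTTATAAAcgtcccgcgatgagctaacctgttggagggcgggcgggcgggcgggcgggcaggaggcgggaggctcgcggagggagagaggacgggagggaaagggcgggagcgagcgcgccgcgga
The motifs searched were the CCAAT box, CCAAT; the TATA box, TATAAA; a retinoid receptor half-site, AGGTCA; a caudal-type (Cdx) core, TTTATG; a Hox-Pbx site, TGATTNAT; and a homeodomain core, TAATTA. The motif CCAAT was in 9 of the 13 members and in 33.8% of 32851 promoter windows of this length. TATAAA was in 3 members, Hoxb8, Hoxd4 and Hoxd13, and in 12.4% of all windows, and in Hoxd13 its matches on the 2 strands overlap in 1 run. AGGTCA was in 5 members, among them Hoxb4 and Hoxd8, and in 14% of windows. TTTATG was in 4 members, with 2 matches each in Hoxa7 and Hoxb8, and in 10.8% of windows. TGATTNAT was in 1 member, Hoxa2, and in 2.82% of windows, and TAATTA was in none of the 13, against 4.84% of windows. In Hoxd3, which is not shown, the TTTATG and AGGTCA matches overlap. The windows shown had a GC content of 44.4% in Hoxb8 and Hoxd8, 58% in Hoxb4, 63.6% in Hoxa5 and 74.4% in Hoxd13, with a median of 52.4% over all windows.

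Hoxb5 and Hoxa5 had the highest mean levels per kilobase. Mean levels over the 36 libraries were 8.86 CPM per kilobase for Hoxb5, 6.7 for Hoxa5, 4.92 for Hoxb8, 4.52 for Hoxc4 and 3.79 for Hoxb3. Other paralogs 4 and 5 were lower, with 3.17 for Hoxa4, 2.15 for Hoxb4, 1.7 for Hoxc5 and 1.33 for Hoxd4. Hoxb8 ranked 3 by its mean but had a median of 0.405 CPM per kilobase, where Hoxb5 had 6.75 and Hoxc4 had 4.42, so its rank rested on a subset of libraries. Paralogs 2 lay near 2, with 2.24 for Hoxa2 and 1.98 for Hoxb2 CPM per kilobase. Hoxd1 was low, with 0.673 CPM per kilobase. Hoxd13, a gene of the digits and genital region, was the lowest at 0.067 CPM per kilobase, with 1 to 20 counts per library. The counts of some members share reads with neighbours: 52.9% of Hoxb3 exon bases overlap the antisense gene Hoxb3os, and 62.8% of Hoxd3 and 52.3% of Hoxd4 exon bases overlap other genes, mainly each other and Gm28230. Whether the counting used strand is not given in the sources used here, so the levels of these 3 are uncertain, as are 27.3% of Hoxb2, 27.1% of Hoxa3 and 20.4% of Hoxa7.

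**Figure D1:**
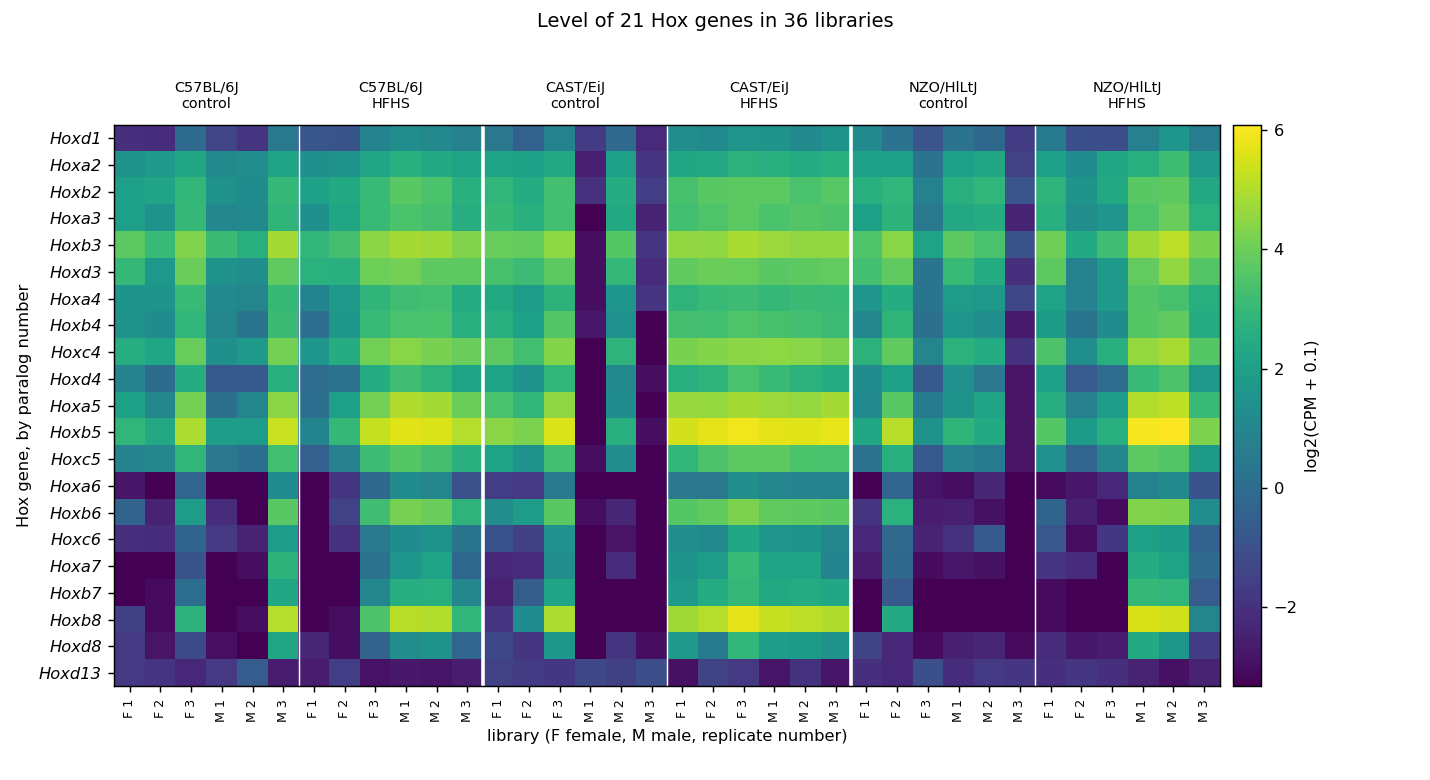
Level of 21 Hox genes (rows, by paralog number) in each of the 36 libraries (columns, by strain, diet and sex), as log2(CPM + 0.1). The 3 dark columns are CAST/EiJ male controls 1 and 3 and NZO/HlLtJ male control 3, and the rows of Hoxa6 to Hoxd8 are dark in many further libraries.

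Hoxd13 aside, the genes moved up and down together from library to library, including between libraries of 1 group. In C57BL/6J controls the summed level was 29.6 CPM in the lowest, 50.8 at the median and 240 CPM in the highest library, and with HFHS 34.4, 173 and 288 CPM. CAST/EiJ controls had 1.14, 78.6 and 244 CPM, and CAST/EiJ HFHS libraries had 233, 263 and 333 CPM. NZO/HlLtJ controls had 2.75, 59.9 and 152 CPM, and NZO/HlLtJ HFHS libraries had 27.6, 102 and 361 CPM. Only the CAST/EiJ HFHS libraries were close to each other, and 1 CAST/EiJ control, female 3, was inside their range. Over the 36 libraries the Spearman rank correlation between 2 members, Hoxd13 aside, had a median of 0.92 within a cluster (51 pairs) and 0.91 between clusters (159 pairs). It had a median of 0.95 for members of the same paralog number or numbers 1 apart, and of 0.86 for numbers 4 or more apart. Over the 33 libraries outside the 3 low ones the last 2 groups of pairs had medians of 0.93 and 0.84. These are descriptions over libraries that share dissection, strain and diet structure, with no p.

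Members of high paralog number varied most between libraries of the same strain, sex and diet. Their biological coefficient of variation, edgeR's estimate of the spread between such libraries relative to the mean, was 0.611 for Hoxd1, 0.671 and 0.702 for Hoxa2 and Hoxb2, and 0.873 to 0.948 for the 3 paralogs of number 3. It was 0.729 to 1.02 for paralogs 4, 1.01 to 1.13 for paralogs 5 and 1.08 to 1.96 for the 7 members of numbers 6 to 8. Hoxb8 had the highest value, 1.96, and Hoxb7 followed with 1.83. The median over all genes tested was 0.138, below each of the 22. Low counts raise this measure, so each gene was also ranked among the 500 genes nearest to it in level: 20 members were at or above the 97.4th percentile and Hoxd13 was at the 28.6th. The order is not exact in every cluster: Hoxa4 had 0.729, below Hoxa3 with 0.885, and Hoxd13 had 0.399. Hoxc6 had 1.08 and Hoxd8 1.13, both near the paralogs 5.

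**Figure D2:**
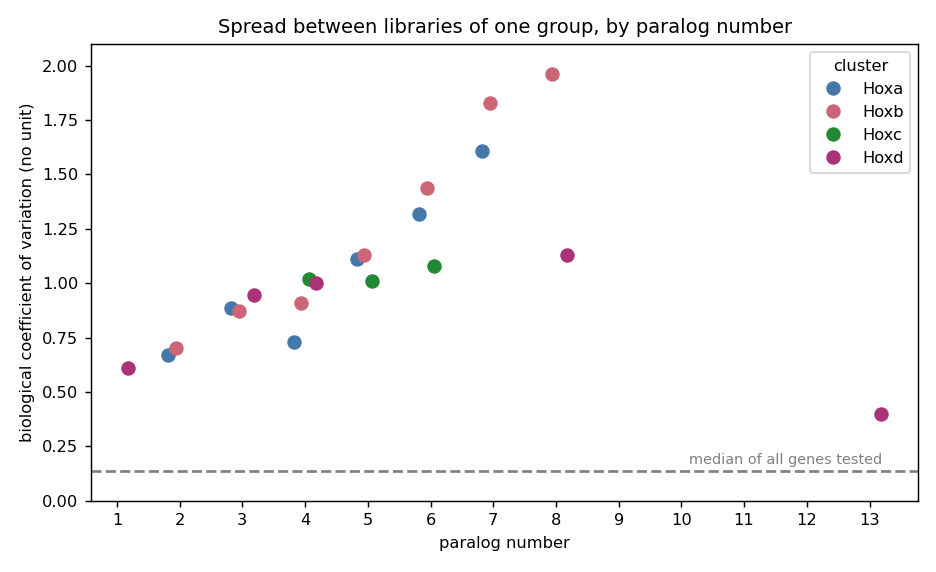
Biological coefficient of variation of 21 Hox genes (vertical axis, no unit) by paralog number (horizontal axis), coloured by cluster, with the median of all genes tested as a dashed line. Values rise from 0.611 at Hoxd1 to 1.96 at Hoxb8, with Hoxd13 at 0.399.

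The level of Hoxb8 ran from 0 to 51.8 CPM. It was under 1 CPM in 18 libraries and at a count of 0 in 12 of them, between 1 and 10 CPM in 5, and above 10 CPM in 13, and highest in CAST/EiJ female HFHS 3. Hoxb4, which lies in the same cluster and marks a more rostral level, was between 1 and 10 CPM in 25 libraries, above 10 CPM in 7 and under 1 CPM in 4. In the male C57BL/6J controls Hoxb8 had 0, 0.0281 and 32.6 CPM while Hoxb4 had 1.84, 1.15 and 8.46 CPM. In the third of these libraries Hoxb8 was close to the 33.2 CPM of the highest HFHS library of the strain. In the female CAST/EiJ controls Hoxb8 had 0.168, 2.31 and 30.2 CPM and Hoxb4 had 6.01, 4.07 and 11.6 CPM. In the male NZO/HlLtJ HFHS libraries Hoxb8 had 45.4, 42.4 and 1.89 CPM and Hoxb4 had 12, 13.8 and 5.43 CPM, whereas the 3 female NZO/HlLtJ HFHS libraries had 0.021, 0 and 0 CPM of Hoxb8 and 3.38, 1.16 and 2.2 CPM of Hoxb4. Hoxb4 was thus present in libraries that held no count of Hoxb8. A count of 0 in 1 library allows up to 3 counts, between 0.0755 and 0.08 CPM on average in the male control groups of CAST/EiJ and NZO/HlLtJ, where all 3 libraries had none, and covers counting error only.

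The share of all Hox counts that came from paralog numbers 6 to 8 ranged from 0.296% in C57BL/6J female HFHS 1 to 30.2% in CAST/EiJ female HFHS 3. Its median was 1.67% in C57BL/6J controls and 12.9% with HFHS, 2.75% in CAST/EiJ controls and 24.1% with HFHS, and 1.11% in NZO/HlLtJ controls and 3.95% with HFHS. The groups overlapped in C57BL/6J (0.474% to 28% against 0.296% to 24.4%), in CAST/EiJ (0.712% to 23.2% against 22% to 30.2%) and in NZO/HlLtJ (0.608% to 9.66% against 0.746% to 27.3%). Numbers 1 to 3 held 70% of Hox counts in C57BL/6J female HFHS 1 and 22.8% in NZO/HlLtJ male HFHS 1. Shares of 1 total move against each other by construction. The summed level of numbers 1 to 3 was 24.1 CPM in the former library and 74 CPM in the latter. By cluster, Hoxb genes gave the largest part of the summed level in each of the 33 libraries outside the 3 low ones, between 40.2% in NZO/HlLtJ female control 1 and 57.2% in NZO/HlLtJ male HFHS 1.

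**Figure D3:**
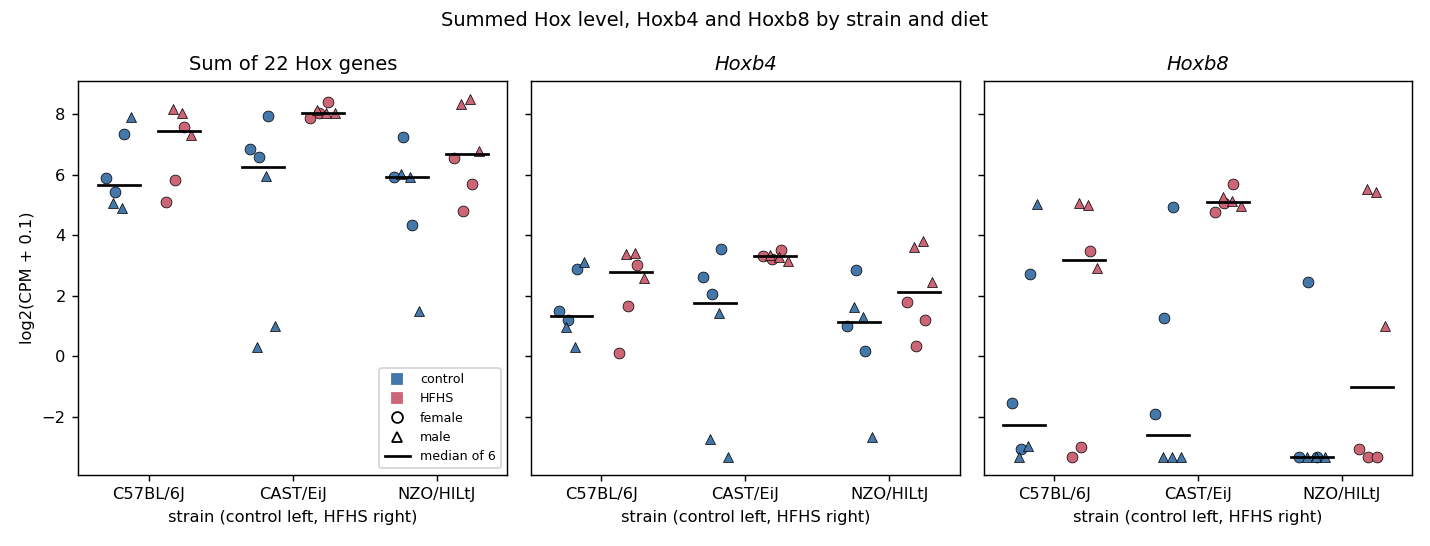
Summed level of the 22 Hox genes, Hoxb4 and Hoxb8 (vertical axis, log2(CPM + 0.1)) in each library by strain and diet, with circles for females, triangles for males and a line at the median of 6 libraries. The 6 CAST/EiJ HFHS libraries lie close together at 26.9 to 51.8 CPM of Hoxb8, while each other group spans from 0 to at least 5.32 CPM.

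Diet was tested within each strain, averaged over the sexes, with edgeR's quasi-likelihood test and Benjamini-Hochberg adjustment over all 20108 genes, and a gene was called at an adjusted p under 0.05. No Hox gene was called for diet in C57BL/6J, where 0% of all genes were called, in CAST/EiJ (0.269% called), in NZO/HlLtJ (0.0497% called) or averaged over the strains (0.109% called). The fitted log2 differences, HFHS over control, lay above 0 for 21 of 22 members in each strain, Hoxd13 being the exception, against a background over all genes of 51% in C57BL/6J, 49.5% in CAST/EiJ and 50% in NZO/HlLtJ. Their median was 0.68 in C57BL/6J, 1.90 in CAST/EiJ and 1.14 in NZO/HlLtJ, against a median over all genes of 0.00 in each. With each group at a count of 0 set to the level of 3 counts per library, the medians were 0.68, 1.90 and 1.02. At an unadjusted p under 0.05 there were 20 of 22 members in CAST/EiJ, 19 higher and Hoxd13 lower, where 18.5% of all genes passed and 9.07% passed with a higher level, 2 in C57BL/6J (2.61% of all genes), 0 in NZO/HlLtJ (10% of all genes) and 19 averaged over the strains (15.2%). On the same comparisons DESeq2 called 0 members in C57BL/6J (0% of all genes called), 9 in CAST/EiJ (3.52%), 2 in NZO/HlLtJ (0.497%) and 6 averaged (1%). limma called 0 members (0% of all genes), 17 (1.38%), 0 (0.0696%) and 17 (0.443%). The members moved together between libraries, so these counts of members are not counts of independent observations. They are set beside the shares of all genes as description only.

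In C57BL/6J the 2 members at an unadjusted p under 0.05 were both in the Hoxd cluster. Hoxd1, expressed in sensory neurons, had 0.127, 0.229 and 1.27 CPM in the lowest, median and highest control library and 0.44, 1.66 and 2.35 CPM with HFHS. Its log2 difference was 1.55 (SE 0.56, edgeR adjusted p = 1), and the groups overlapped. The size of the difference in C57BL/6J changed with single libraries: without C57BL/6J female HFHS 3 the median of the 22 was 0.03, with 11 above and 11 below 0, and without C57BL/6J male control 3 it was 1.67. Between C57BL/6J controls and HFHS libraries the median sum of red blood cell genes was 1524 and 565 CPM and that of cerebellar markers 1287 and 887 CPM, and their part in the result was not tested.

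In CAST/EiJ the differences were largest for numbers 5 and above, Hoxd13 aside. Hoxa5, needed for breathing circuits and motor neurons, had 0, 4.83 and 23 CPM in the lowest, median and highest control and 24.1, 25.1 and 28.4 CPM with HFHS. Every HFHS library was thus above every control, and the log2 difference was 2.93 (SE 0.88, edgeR adjusted p = 0.0957). Hoxb5 had 0, 12.2 and 46.7 CPM in controls and 43.8, 51.4 and 58.1 CPM with HFHS, a log2 difference of 2.70 (SE 0.87, edgeR adjusted p = 0.111). Here 1 control overlapped the HFHS range. Hoxc6, typical of brachial spinal cord, had 0, 0.144 and 2.61 CPM in controls and 1.97, 2.59 and 4.77 CPM with HFHS. Its log2 difference was 4.25 (SE 1.07), with the smallest edgeR adjusted p of the set, 0.0673. The male controls had 0, 0.0413 and 0 CPM of Hoxc6, so this size rests on few counts. Hoxa7 had 0, 0.116 and 2.41 CPM in controls and 1.77, 3.87 and 8.22 CPM with HFHS. Hoxd8 had 0, 0.165 and 3.06 CPM in controls and 1.42, 3.3 and 7.4 CPM with HFHS, a log2 difference of 3.59 (SE 0.98, edgeR adjusted p = 0.0757). Its male controls had 0, 0.165 and 0.029 CPM, so this size also rests on few counts. For Hoxb8 the controls had 0, 0.0842 and 30.2 CPM and the HFHS libraries 26.9, 34 and 51.8 CPM, and since all 3 male controls were at 0 no fold change is given.

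The members of lower number showed the same direction with smaller sizes. Hoxc4 had 0, 8.15 and 20 CPM in CAST/EiJ controls and 18.4, 20.7 and 22.1 CPM with HFHS, a log2 difference of 1.80 (SE 0.73, edgeR adjusted p = 0.188). Hoxd3 had 0.0258, 8.12 and 13 CPM against 12.8, 13.9 and 15.7 CPM, a log2 difference of 1.40 (SE 0.75). Hoxb2, which patterns the rhombomere of the facial nerve, had 0.155, 5.56 and 9.61 CPM against 10.1, 12.6 and 12.9 CPM, a log2 difference of 1.60 (SE 0.57, edgeR adjusted p = 0.135). In CAST/EiJ 5 members had every HFHS library above every control, Hoxa4, Hoxa5, Hoxb2, Hoxb3 and Hoxd1, where 0.438% of all genes did. No member did so in C57BL/6J, where 0.0696% of all genes did, or in NZO/HlLtJ, where 0.288% did.

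The CAST/EiJ differences depend on single control libraries and on the method. Without CAST/EiJ male control 2 the median log2 difference was 4.64 and 17 members were called, where 9.41% of all genes were, with CAST/EiJ male controls 1 and 3 the only males left on that diet. Without those 2 and NZO/HlLtJ male control 3, all left out at once after their values were seen, the median was 1.25 and no member was called. The 17 members that limma called and the 9 that DESeq2 called were all higher with HFHS. With the summed Hox level of each library as a covariate the median was -0.07. That covariate is made of the genes tested and removes by construction what they share, so no conclusion is drawn from this value. Other tissue markers differed beside the Hox genes. Cerebellar markers had a median sum of 1203 CPM in CAST/EiJ controls and 551 CPM with HFHS, and dorsal vagal markers 482 and 587 CPM. Of the 12 dorsal vagal markers tested, 8 lay above 0 and 4 below, with a median log2 difference of 0.35. At an unadjusted p under 0.05 were 2 of them, and 1 was called, Prrxl1 (log2 difference 1.46, SE 0.33, edgeR adjusted p = 0.047). Genes of red blood cells had 1812 and 309 CPM, with 4 of these 6 called lower (Hbb-bs log2 difference -2.67, SE 0.46, edgeR adjusted p = 0.0167). The share of all genes called in this comparison was 0.269%. Midbrain and isthmus markers had median sums of 84.8 and 53.2 CPM. Of 8 tested, 2 lay above 0 and 6 below, with 6 at an unadjusted p under 0.05 and a median log2 difference of -1.12. Oligodendrocyte markers had 10066 and 11638 CPM (9 of 9 at that p, median 0.28). Of all genes, 18.5% were at that p. Spinal and caudal dorsal horn markers had median sums of 144 CPM in controls (119 to 175) and 187 CPM with HFHS (167 to 205). Of these 12 markers, 10 lay above 0 and 2 below, with 7 at an unadjusted p under 0.05, 0 called and a median log2 difference of 0.45. Astrocyte markers had 4722 and 5056 CPM, with 1 of 8 called. Their part in the result was not tested.

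**Figure D4:**
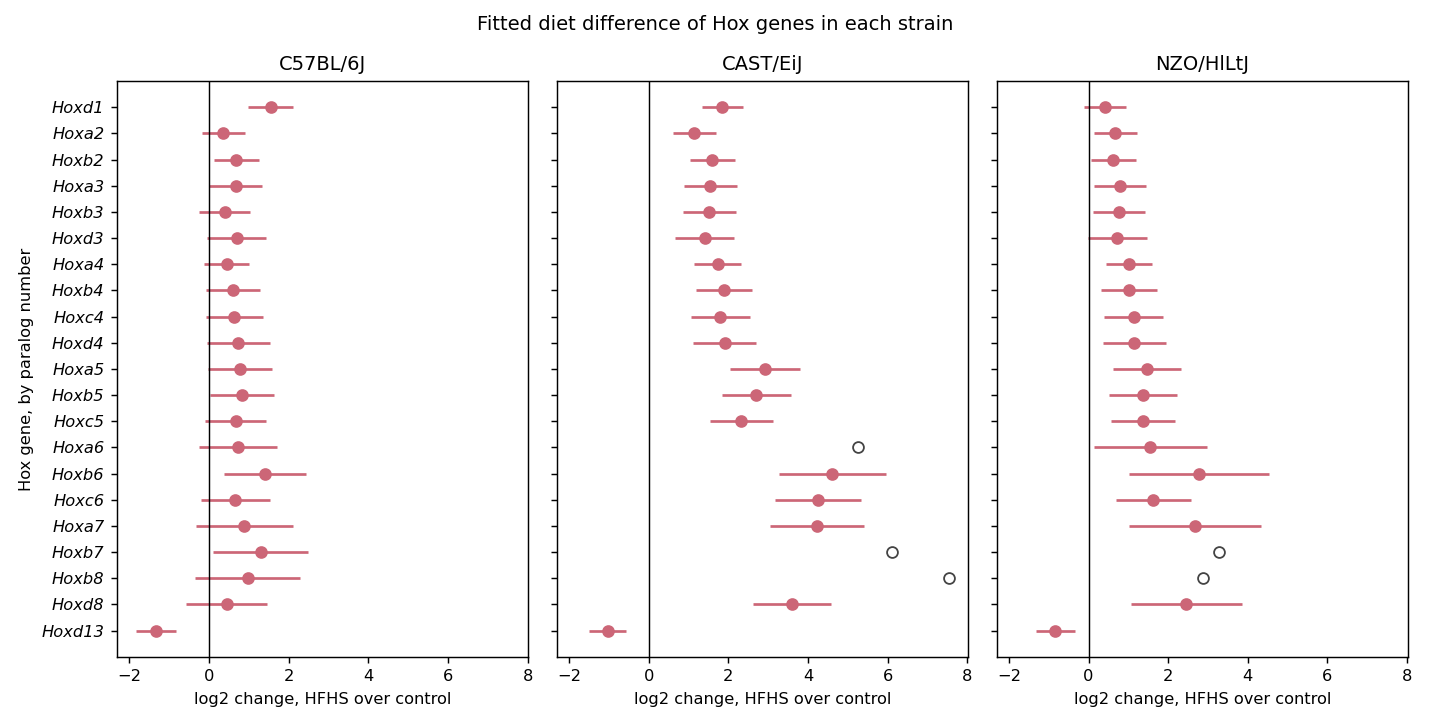
Fitted log2 difference between HFHS and control of 21 Hox genes (rows) in each strain (panels), with bars of 1 standard error. Open points without bars are members with all 3 libraries of a group at a count of 0, whose fitted size is not a measured fold. Points lie above 0 except for Hoxd13, and no member was called in any panel.

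In NZO/HlLtJ Hoxb5 had 0.0395, 5 and 33.7 CPM in the lowest, median and highest control and 3.41, 15.6 and 67.7 CPM with HFHS, a log2 difference of 1.36 (SE 0.85, edgeR adjusted p = 0.62). Hoxc4 had 0.158, 5.96 and 13.7 CPM against 2.49, 11.4 and 28.6 CPM, a log2 difference of 1.13 (SE 0.73). Their groups overlapped, and the highest HFHS libraries were males 1 and 2. Hoxa5 had 0.0395, 2.44 and 12.7 CPM against 1.59, 6.84 and 36.5 CPM, a log2 difference of 1.46 (SE 0.85, edgeR adjusted p = 0.583).

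The fitted diet differences of Hoxd13 lay below 0, opposite to the other 21. Hoxd13 had 0.188, 0.25 and 0.377 CPM in the lowest, median and highest CAST/EiJ control and 0.0343, 0.103 and 0.279 CPM with HFHS, a log2 difference of -1.03 (SE 0.47, edgeR adjusted p = 0.235). In C57BL/6J it had 0.0634, 0.181 and 0.562 CPM in controls and 0.0362, 0.0629 and 0.233 CPM with HFHS, a log2 difference of -1.33 (SE 0.51, edgeR adjusted p = 1), and in NZO/HlLtJ the log2 difference was -0.84 (SE 0.49). Its rank correlation with each of the other 21 members was negative over the 36 libraries, from -0.64 with Hoxd3 to -0.40, and from -0.59 to -0.31 over 33 libraries. These values rest on few reads, as 12 libraries had 3 counts or fewer. Evx2, the homeobox gene 8.75 kb beyond Hoxd13 at the edge of the cluster, had a rank correlation of -0.60 with the summed Hox level and a log2 difference of -0.58 (SE 0.24, edgeR adjusted p = 0.189) in CAST/EiJ.

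Strains were compared averaged over sex and diet. Between CAST/EiJ and C57BL/6J, in which 52.2% of all genes were called, 1 member was called, and without the 3 low libraries the only member called was Hoxd1. Hoxd8 had 0, 2.1 and 7.4 CPM in CAST/EiJ and 0.0198, 0.106 and 5.3 CPM in NZO/HlLtJ. It was lower in NZO/HlLtJ by a log2 difference of -2.31 (SE 0.89, edgeR adjusted p = 0.0338), the only member called there, with 49.8% of all genes called. Without the 3 low libraries it was -2.49 with an adjusted p of 0.0557, and in the fit on all other libraries the call was also lost without CAST/EiJ female control 3, CAST/EiJ male control 2, NZO/HlLtJ female control 3 or NZO/HlLtJ male control 3.

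No member was called between NZO/HlLtJ and C57BL/6J, where 23.8% of all genes were, while DESeq2 called 3 members (25.6% of all genes) and limma 0 (24.5%). The 3 members at an unadjusted p under 0.05 (34.1% of all genes) were Hoxb6, Hoxb7 and Hoxb8. Hoxb6 had 0, 2.12 and 17.7 CPM in C57BL/6J and 0, 0.127 and 19.4 CPM in NZO/HlLtJ, a log2 difference of -2.37 (SE 0.97, edgeR adjusted p = 0.0794). Hoxb7 had a median of 0.489 CPM in C57BL/6J and 0 in NZO/HlLtJ, and Hoxb8 had 3.38 and 0 CPM, with highest libraries of 33.2 and 45.4 CPM. Both groups thus ran from 0 to high values. Medians of the 22 log2 differences were 0.03 for CAST/EiJ against C57BL/6J, -0.43 for NZO/HlLtJ against C57BL/6J and -0.53 for NZO/HlLtJ against CAST/EiJ, and the sign of each turned when single libraries were left out, with ranges of -0.99 (without CAST/EiJ male control 2) to 0.54 (without C57BL/6J male control 3), -0.66 (without NZO/HlLtJ female control 2) to 0.02 (without C57BL/6J male control 3) and -0.82 (without NZO/HlLtJ female control 2) to 0.52 (without CAST/EiJ male control 2).

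The diet difference was not found to differ between the strains: no member was called for the interaction of strain and diet, which called 0% of all genes, and the lowest adjusted p of a member was 0.599 for Hoxc6. None of the 22 reached an unadjusted p under 0.05 in that test, where 8.58% of all genes did. No member was called between the sexes (0.0796% of all genes called), with a median log2 difference, male over female, of -0.08 (0.25 without the 3 low libraries) and 0 members at an unadjusted p under 0.05 (5.09% of all genes). DESeq2 and limma called 0 and 0 members for the interaction. Between the sexes DESeq2 called 2 members (0.164% of all genes) and limma 0 (0.0796%).

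Other genes inside the clusters varied in how closely their levels went with the Hox level. Of 16 such genes in the table, mostly noncoding, 11 were tested, and their summed level had a rank correlation of 0.98 with the summed Hox level over the 36 libraries. Singly the 16 ranged from 0.13 for Gm11539, with at most 0.0372 CPM, and 0.45 for Hoxb3os to 0.96 for Gm28230 and 5730596B20Rik. Some share sequence with members, Gm28230 holding 52.1% of the 50-base stretches of Hoxd3 and Hoxb3os 51.4% of those of Hoxb3, so their levels are not separate measurements. None was called for diet, while 10 of 11 were at an unadjusted p under 0.05 in CAST/EiJ, where 18.5% of all genes were, with a median log2 difference of 1.37. Haglr, a noncoding gene that starts beside Hoxd1, had 0.257, 2.75 and 6.19 CPM in the lowest, median and highest library and a rank correlation of 0.93. Gm14424, a noncoding gene of the Hoxd cluster, was higher in CAST/EiJ than in C57BL/6J by a log2 difference of 1.43 (SE 0.31, edgeR adjusted p = 2.1e-04) and its log2 difference for NZO/HlLtJ over CAST/EiJ was -1.46 (SE 0.30, edgeR adjusted p = 1.5e-04), with a highest level of 1.44 CPM.

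The nearest tested genes outside the clusters differed among themselves. The 24 nearest tested protein-coding neighbours, 3 on each side of each cluster, lay from 8.75 kb (Evx2) to 910 kb (Nfe2l2) away. They had a summed level of 1784 to 2039 CPM and a rank correlation of 0.23 with the summed Hox level. The sum includes abundant genes such as Cbx5 (254 to 323 CPM), while Atp5g2 ran from 2.96 to 53.7 CPM and Ttll6 from 0.338 to 3.16 CPM. Singly the correlations ran from -0.60 for Evx2 to 0.78 for Skap2, with 0.73 for Skap1, 0.66 for Smug1 and 0.60 for Snx11. Skap1, 96.3 kb from Hoxb, had a log2 difference of 0.88 (SE 0.21, edgeR adjusted p = 0.0556) for diet in CAST/EiJ. Of the 24, 1 was called for diet in CAST/EiJ: Skap2, a signalling adaptor 143 kb from Hoxa, had a log2 difference of 0.56 (SE 0.13, edgeR adjusted p = 0.047). The call belongs to a comparison with 0.269% of all genes called.

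None of the listed genes that act with or on Hox genes was called for diet. Of all genes, 0% were called in C57BL/6J, 0.269% in CAST/EiJ and 0.0497% in NZO/HlLtJ. At these shares a list this short is not expected to hold a call. At an unadjusted p under 0.05 in CAST/EiJ were 2 of 9 cofactors, 5 of 17 upstream regulators and 10 of 26 chromatin regulators. Of all genes, 18.5% were at that p. All 9 Hox cofactors of the TALE class (Meis, Pbx and Pknox genes) were tested, their summed level stayed between 374 and 437 CPM, and none was called for diet in any strain. In CAST/EiJ Pknox1 had a log2 difference of 0.22 (SE 0.08) and Meis2 one of 0.30 (SE 0.13). Of 23 upstream regulators, chiefly the retinoic acid pathway and the segment factor Egr2, 18 were in the table and 17 tested, and none was called for diet. Rxra, a retinoid receptor, had the smallest p in CAST/EiJ with a log2 difference of 0.32 (SE 0.08, edgeR adjusted p = 0.0637), ahead of Gdf11 with 0.21 (SE 0.07) and Rarb with 0.22 (SE 0.08). Of 26 chromatin regulators, Polycomb and Trithorax genes among them, none was called for diet. In CAST/EiJ 21 of the 26 lay below 0 with a median log2 difference of -0.10, led by Pcgf2, a Polycomb subunit, with -0.43 (SE 0.10, edgeR adjusted p = 0.0556). Kdm6b, which removes the Polycomb mark, followed with -0.25 (SE 0.07) and Brpf1 with -0.24 (SE 0.08). Over the 36 libraries the summed level of the chromatin regulators had a rank correlation of -0.80 with the summed Hox level. It was -0.74 without the 3 low libraries. The cofactors had -0.02 and the upstream regulators 0.26 over the 36. What these correlations rest on was not tested.

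The Hox level was set beside the marker lists library by library. Its rank correlation over the 36 libraries was 0.86 with the sum of dorsal vagal and hindbrain markers, 0.82 with that of spinal and caudal dorsal horn markers, 0.65 with motor neuron markers and -0.80 with cerebellar markers. Over the 33 libraries outside the 3 low ones these were 0.82, 0.88, 0.57 and -0.76. Other lists had -0.71 (red blood cells), -0.62 (noradrenergic and adrenergic neurons), -0.57 (midbrain and isthmus) and 0.66 (astrocytes) over the 36, and -0.72, -0.53, -0.44 and 0.60 over the 33. Among single genes, Pax2 had 0.95 and Pax8 0.94, opposite in sign to the midbrain and isthmus list that holds them, and both are also expressed in hindbrain and spinal interneurons. Prrxl1 had 0.92 and Lbx1 0.89, transcription factors of hindbrain and dorsal horn neurons, while En2, of the midbrain-hindbrain boundary and cerebellum, had -0.86 and Pcp2, a Purkinje cell gene, -0.82. Forebrain markers stayed low throughout, with a sum of 6.9 to 16.4 CPM. CPM levels are shares of each library's RNA, so the markers and Hox genes are not measured independently of each other, and the correlations are given with no p.

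**Figure D5:**
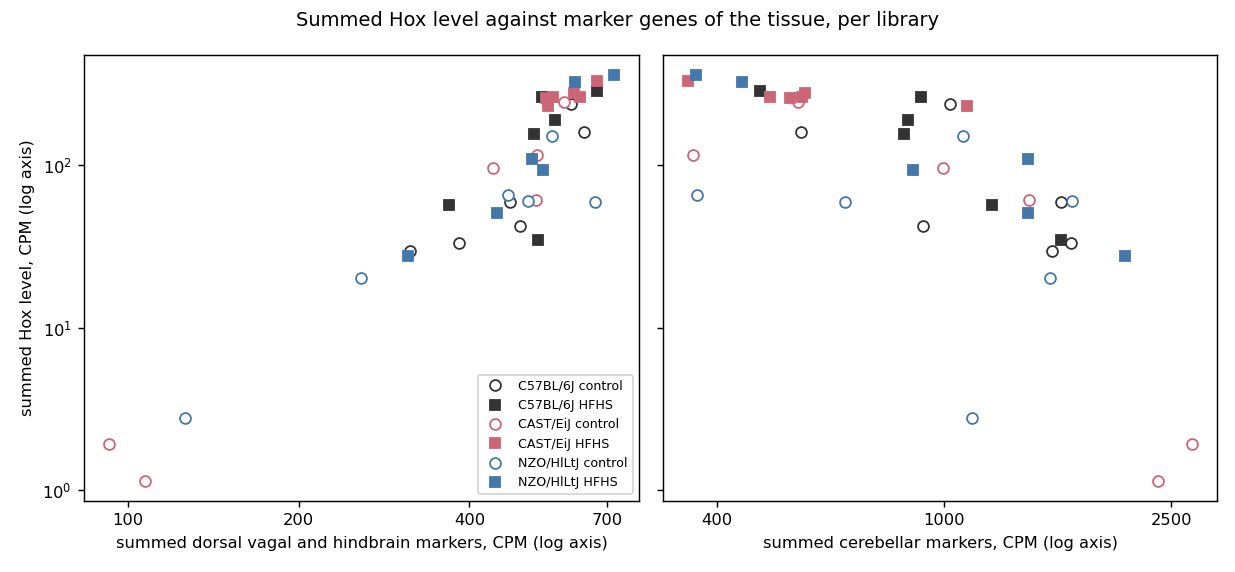
Summed level of the 22 Hox genes (vertical, CPM on a log axis) against the summed level of dorsal vagal and hindbrain markers (left) and cerebellar markers (right; CPM on log axes) in 36 libraries, coloured by strain and filled for HFHS. Libraries with more hindbrain marker RNA and less cerebellar marker RNA lie higher, and the 3 libraries at 1.14 to 2.75 CPM of Hox genes have the lowest hindbrain sums.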

How the data were processed

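Polyadenylated RNA of 36 mouse dorsal vagal complex libraries was sequenced, with spike-in RNA added, per the labels' protocols. The authors deposited expected counts per gene and variance-stabilised log2 values. Per the submitters' processing notes, the build was GRCm38 and DESeq2 was used. For the aligner, the counting tool, the annotation release and the use of strand, no entry was found: not given in the sources used here. Between 18.7% and 22.7% of the deposited values in a library were not whole, and expected counts were rounded before testing. CPM values (counts per 1e+06) were computed here from the deposited expected counts with TMM factors of 0.959 to 1.04.

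Genes were tested with edgeR 4.0.16 in R 4.3.3 (quasi-likelihood test, robust estimation, 12 group means of strain, diet and sex, 24 residual degrees of freedom) on genes kept by filterByExpr (at least 10 counts, total of at least 15). P-values were adjusted by Benjamini and Hochberg over all 20108 genes with a threshold of 0.05. DESeq2 1.42.0 on the same counts and limma 3.58.1 on the deposited log2 values were alternatives, with other scaling, filters, a sex term, the summed Hox level as covariate and each library left out in turn. Replicate numbers were given in accession order. The precision is limited by 3 replicates per group and, for members with few counts, by the depth of 22.03 to 49.61 M counts. The floor of 3 counts covers counting error only.

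Values of some genes are not reported here, and the plots leave 1 member out. The members and lists were chosen with earlier results of these data known. Genes named with group values are the 2 members of each cluster highest per kilobase, the lowest- and highest-numbered member of each cluster and called members. Hoxb3, Hoxb4, Hoxb6 and Hoxb7 are named beside these, chosen after their values were seen. Besides those, the nearest genes outside the clusters, noncoding genes inside them, and the 3 genes with the smallest p of each regulator list are named.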

Additional observations from a re-analysis of the deposited data

Results flagged for a closer look

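In 15 of 84 groups of 6 libraries, 1 library was far from the other 5 by Dixon's gap test at the 95% level. For normally distributed values chance gives this in about 1 of 20 groups, and the rate for skewed levels with zeros, as here, was not tested. The groups are not independent, since the members move together and a few libraries give most of the cases.

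NZO/HlLtJ female control 2 was the highest of the 6 NZO/HlLtJ controls for Hoxa5 (12.7 CPM, next library 4.39 CPM) and Hoxa7 (0.796 CPM, next 0.07 CPM). It was also highest for Hoxb5 (33.7 CPM, next 6.98 CPM), Hoxb8 (5.32 CPM, all others 0) and Hoxc5 (5.82 CPM, next 1.72 CPM). C57BL/6J male control 3 was the highest C57BL/6J control for Hoxa7 (6.64 CPM, next 0.425 CPM), Hoxb8 (32.6 CPM, next 6.52 CPM) and Hoxc6 (3.49 CPM, next 0.708 CPM). CAST/EiJ female control 3 was the highest CAST/EiJ control for Hoxa7 (2.41 CPM, next 0.128 CPM), Hoxb8 (30.2 CPM, next 2.31 CPM) and Hoxc6 (2.61 CPM, next 0.421 CPM). Among libraries on HFHS, CAST/EiJ female HFHS 3 had 4.77 CPM of Hoxc6 and the next library 2.93 CPM.

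Hoxd13 was high in other libraries. C57BL/6J female HFHS 2 had 0.233 CPM where the next HFHS library had 0.0679 CPM. C57BL/6J male control 2 had 0.562 CPM and the next control 0.195 CPM, and NZO/HlLtJ female control 3 had 0.39 CPM and the next control 0.203 CPM.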

How the results depend on the processing

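No Hox gene was called for diet by edgeR with any other scaling, filter or sex term, but other tools and subsets gave calls. For diet in CAST/EiJ the count of Hox genes called was 4 with only CAST/EiJ libraries, 17 with limma and 9 with DESeq2, and 0 to 17 with each library left out in turn: 17 without CAST/EiJ male control 2 and 2 each without C57BL/6J male control 3, CAST/EiJ female control 3 or NZO/HlLtJ male control 3. DESeq2 called 2 for diet in NZO/HlLtJ. Averaged over the strains limma called 17 and DESeq2 6, with 0 to 14 on leaving out a library: 14 when CAST/EiJ male control 2 was left out, 8 for C57BL/6J male control 3 and 1 for C57BL/6J female control 3. For CAST/EiJ against C57BL/6J the count of 1 became 0 with genes of at least 1 CPM on average or with a sex term, 4 with the summed Hox level as covariate, 2 with limma and 3 with DESeq2, and 0 to 2 on leaving out a library. For NZO/HlLtJ against C57BL/6J the count of 0 became 4 with the covariate, 3 with DESeq2 and 2 in edgeR without robust estimation, a setting chosen after seeing the data, and 0 to 3 on leaving out a library. For NZO/HlLtJ against CAST/EiJ the count of 1 became 3 with the covariate, 5 with limma, 3 with DESeq2 and 0 without the 3 low libraries, also chosen after seeing the data, and 0 to 1 on leaving out a library. Between the sexes DESeq2 called 2. In the main fit 0.269% of all genes were called for diet in CAST/EiJ, 0.0497% in NZO/HlLtJ and 0.109% averaged over the strains. That fit called 52.2% of all genes for CAST/EiJ against C57BL/6J, 23.8% for NZO/HlLtJ against C57BL/6J and 49.8% for NZO/HlLtJ against CAST/EiJ. Shares in the other settings can differ. Without CAST/EiJ male control 2 the share for diet in CAST/EiJ was far larger, as given above. The diet counts from these settings and the strain counts of 0 to 5 members are not read as an excess. With the covariate the diet difference in CAST/EiJ changed sign for Hoxa4 (-0.05), Hoxb2 (-0.10), Hoxc4 (-0.34), Hoxc5 (-0.14), Hoxd3 (-0.74) and Hoxd4 (-0.59). The covariate is made of the genes tested, so it removes by construction what the members share. Other causes were not tested. The labels name no pairing between libraries and carry no replicate numbers, and no paired analysis was run. Low counts limit Hoxd13 and, in many controls and some HFHS libraries, Hoxa6, Hoxa7, Hoxb6, Hoxb7, Hoxb8, Hoxc6 and Hoxd8. Of the 36 libraries, Hoxd8 was under 1 CPM in 24 and Hoxc6 in 22.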
